A study of Homo sapiens with 8 samples.

Results

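The comparison described here set miR-29b against a negative control miRNA in LNCaP, an established prostate cancer cell line that responds to androgen. It rests on 2 of the 8 arrays of a series on miRNA and TET2 in prostate cancer. The LNCaP arrays, 1 per construct, hold cells given either miRNA, the control being called nc, or an siRNA: siControl, or siTET2, which is directed at TET2. DU145, an androgen-independent prostate cancer line, received the same 4 constructs. All cells on the 8 arrays received a small RNA, shared 1 growth medium and were harvested 72 h after transfection, so no array shows untransfected cells. The members are all 18417 genes with 1 probe set symbol, each described by its log2 value on the miR-29b array minus that on the nc array. Of these, 9444 were above a level floor, meaning that the higher of the 2 arrays reached the 50th percentile of its own named genes.

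There was 1 array on each side. No difference in this text has a replicate check, an error of its own or a p-value. The LNCaP siControl array served as a second reference: over genes above the floor, siControl minus nc had an SD of 0.24 log2, a figure that mixes the difference between 2 control constructs with any variation from dish to dish or array to array. The labels name no separate cultures. The 8 measured markers of LNCaP, among them the prostate kallikreins KLK2 and KLK3, were at or above the named-gene median on the nc, siControl and siTET2 arrays, and 7 were on the miR-29b array, where TRPM8 was below it. Of 10 measured DU145 markers 2 were (EGFR and CDKN2A), of 11 immune cell markers 1 was (CD68), and of 10 fibroblast markers 1 was (COL1A1). As these are bulk cultures, fewer cells of a state and less RNA per cell cannot be told apart.

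MicroRNAs guide Argonaute proteins to messenger RNAs that pair with their seed, and lower the level or translation of those messengers. The miR-29 family is known for restraining collagens and other matrix genes, enzymes that add or remove DNA methylation, and several growth and survival genes. Cells sense foreign or unusual RNA through receptors such as RIG-I, MDA5, PKR and TLR3, which turn on interferons and, through them, effector genes of the IFIT and OAS families.

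The 3 mature miR-29 members carry the same seed, shown in capitals (bases 2 to 8 of each). Sequences are from RefSeq (GRCh38.p14).
hsa-miR-29b-3p: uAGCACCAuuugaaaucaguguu
hsa-miR-29a-3p: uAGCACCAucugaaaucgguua
hsa-miR-29c-3p: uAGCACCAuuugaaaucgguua
The first is encoded at chr7:130877467-130877489 (MIR29B1) and at chr1:207802450-207802472 (MIR29B2), the others at chr7:130876748-130876769 (MIR29A) and chr1:207801865-207801886 (MIR29C), all on the minus strand. Among 2545 mature miRNAs in the table, these 3 names were the ones with this seed, whose DNA-letter target is TGGTGCT. The labels do not say which arm or which chemistry was transfected.

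Promoters of 4 genes that were high with miR-29b are shown, to place motifs of the interferon and ATF4 pathways beside the values. Each runs from 250 bases before to 50 bases after the RefSeq start (GRCh38.p14), in the direction of the gene. Capitals in the first 3 mark the core of the interferon-stimulated response element, GAAANNGAAA on either strand, and in the fourth the element read by ATF4 and its partners, TGATGNAA on either strand.
IFIT1: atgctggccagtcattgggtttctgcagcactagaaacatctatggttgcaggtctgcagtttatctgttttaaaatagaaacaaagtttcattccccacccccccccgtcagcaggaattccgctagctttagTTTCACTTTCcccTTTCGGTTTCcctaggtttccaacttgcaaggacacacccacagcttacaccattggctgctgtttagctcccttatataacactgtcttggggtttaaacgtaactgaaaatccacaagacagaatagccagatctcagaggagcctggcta
IFI6: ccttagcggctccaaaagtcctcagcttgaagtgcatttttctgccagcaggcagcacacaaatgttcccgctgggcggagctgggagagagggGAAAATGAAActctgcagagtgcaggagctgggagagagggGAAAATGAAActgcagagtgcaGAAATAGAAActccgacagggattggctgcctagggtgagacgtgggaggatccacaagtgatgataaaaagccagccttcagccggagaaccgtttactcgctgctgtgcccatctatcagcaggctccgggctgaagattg
CXCL10: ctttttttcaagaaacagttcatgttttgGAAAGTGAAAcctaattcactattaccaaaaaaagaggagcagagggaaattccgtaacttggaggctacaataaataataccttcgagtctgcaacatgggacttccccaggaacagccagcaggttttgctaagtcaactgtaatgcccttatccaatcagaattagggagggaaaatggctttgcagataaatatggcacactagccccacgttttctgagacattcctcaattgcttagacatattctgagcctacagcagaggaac
CHAC1: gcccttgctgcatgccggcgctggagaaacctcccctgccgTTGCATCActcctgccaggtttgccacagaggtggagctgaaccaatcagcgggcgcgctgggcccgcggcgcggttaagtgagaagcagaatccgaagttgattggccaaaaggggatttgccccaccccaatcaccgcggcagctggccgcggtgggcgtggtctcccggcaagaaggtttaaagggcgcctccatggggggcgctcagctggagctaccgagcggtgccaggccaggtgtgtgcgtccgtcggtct
IFIT1 lies at chr10:89392373-89392672 (plus strand), IFI6 at chr1:27672143-27672442 (minus), CXCL10 at chr4:76023448-76023747 (minus) and CHAC1 at chr15:40953221-40953520 (plus). The interferon motif matched 2 times in IFIT1, 3 times in IFI6 and 1 time in CXCL10, and the last also held 1 match to the kappaB letters GGGANNTTCC, which is not capitalised. IFIT1 and IFI6 were shown by the rule for named genes, and CXCL10 and CHAC1 were chosen after their values were seen. IFIT2 and OASL, also picked by that rule, had no entry in the table.

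The largest positive differences were in genes of the interferon response and chemokines, which supplied 10 of the 15 highest genes. Above the floor, 9 genes were at least 2-fold higher with miR-29b than with nc (0.0953% of 9444) and 0 were at least 2-fold lower (0%). At 1.5-fold, 57 genes were higher (0.604%) and 23 lower (0.244%). Of the 57, 16 were in the interferon or chemokine lists and 41 were not, and 16 were also at least 1.5-fold higher with siControl than with nc. Between the control arrays, 13 genes were higher with siControl than with nc by 2-fold or more (0.136% of 9531), 171 were at least 1.5-fold higher (1.79%) and 49 were at least 1.5-fold lower (0.514%). More genes thus passed 1.5-fold between both controls than between miR-29b and nc. Without a floor, 124 of 18417 genes were at least 1.5-fold higher (0.673%), 71 at least 1.5-fold lower (0.386%), and 45.3% were above 0.

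IFIT2, an effector that binds foreign RNA, had the largest difference. Its level was 6.39 log2 with nc, 9.01 with miR-29b, 6.59 with siControl and 6.98 with siTET2. The difference was 2.62 from nc and 2.42 from siControl. IFIT1, which recognises RNA that lacks host cap methylation, read 7.29 with nc, 9.20 with miR-29b, 7.33 with siControl and 7.53 with siTET2. For both genes the 3 other arrays lay within 1 log2 of each other and the miR-29b array was above them, by 3.78-fold over nc for IFIT1 and 6.15-fold for IFIT2. OASL, an OAS-like protein that boosts RIG-I signalling, read 8.02 with nc, 9.22 with miR-29b, 7.58 with siControl and 7.85 with siTET2.

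The IFIT and OAS list had 9 measured members, of which 6 passed the floor. On the nc array 2 members reached the named-gene median, against 6 on the miR-29b array. IFIT2, IFIT1, OAS1 and IFIT5 thus passed the floor through the array where they were high. Over all 9, 8 were higher and 1 lower than nc, 6 were at least 1.5-fold higher, and the median difference was 0.69 from nc and 0.64 from siControl. The miR-29b value was above both controls in 8 of the 9, where 28.0% of all genes were above both. IFIT3, a binding partner of IFIT1, was at 6.50 with nc and 7.64 with miR-29b, against 6.24 with siControl and 6.23 with siTET2, but did not pass the floor. OAS3 and OAS1, which make the messenger that activates RNase L, differed from nc by 0.69 and 0.68. OAS2 differed by 0.31 at a level below the floor, and IFIT5 by 0.56. IFIT1B, the member lower than nc, was at 5.33 with nc, 4.89 with miR-29b and 4.71 with siControl, below the floor, and all 9 members were higher than siControl. In RefSeq's gene order these neighbours run IFIT2, IFIT3, IFIT1B, IFIT1, IFIT5.

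A second list of 52 measured interferon-stimulated genes, 23 of them above the floor, held 44 that were higher and 8 that were lower than nc, with a median difference of 0.15 from nc and 0.20 from siControl. Above both controls were 40 of the 52. IFI6, a mitochondrial and membrane protein of the response, read 8.85 with nc, 10.02 with miR-29b, 9.44 with siControl and 9.94 with siTET2. IFITM1, which blocks virus entry at membranes, read 7.22, 8.21, 7.49 and 7.74 in the same order. IFI6 was nearly as high with siTET2 as with miR-29b, whereas IFITM1 had a wider gap. For IFI6 the nc array was the one apart, at least 1.5-fold below every other LNCaP array.

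DTX3L, an E3 ligase that works with PARP9, was close to its level with siControl. It was at 8.25 with nc and 9.38 with miR-29b, a difference of 1.13, but siControl was at 9.16 and the difference from it was 0.22. PARP9 itself differed from nc by 0.49 and from siControl by 0.13. HERC6, a ubiquitin ligase relative, was higher than both, by 0.78 and 0.51, and TRIM21, an antibody receptor in the cytosol, by 0.47 and 0.20.

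Of the 9 members of this list that were at least 1.5-fold higher, 5 did not pass the floor and are named here after their values were seen. RSAD2 (viperin) was at 5.80 with nc, 7.69 with miR-29b, 5.78 with siControl and 6.26 with siTET2. IFI44L differed by 1.27 from nc and 1.04 from siControl, and HERC5, the ligase that attaches ISG15, read 6.51, 7.62, 6.74 and 6.86 in the same order. IFI44 differed from nc by 0.65 and DDX60L by 0.60. In all 5 the miR-29b array was the highest of the 4.

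**Figure D1:**
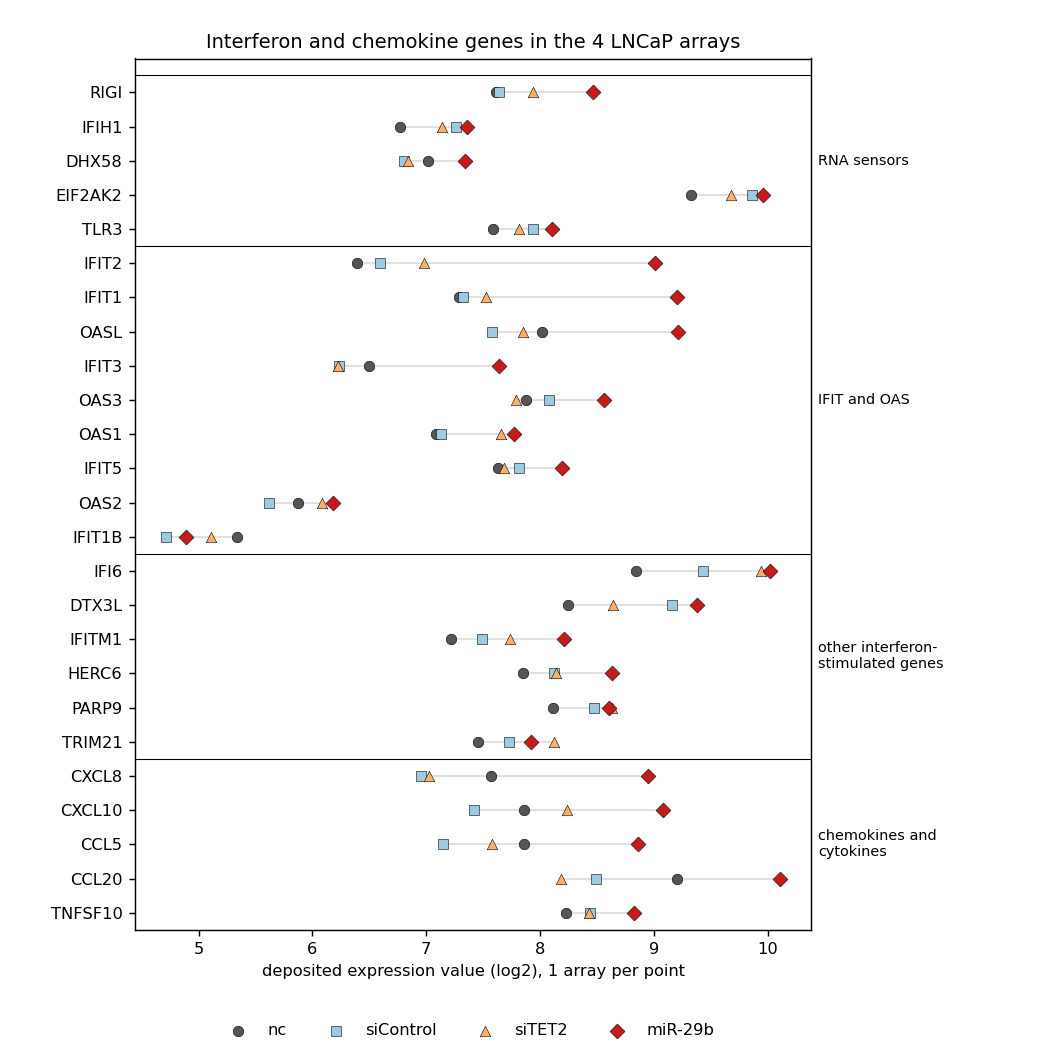
Deposited log2 levels of RNA sensors, IFIT and OAS genes, other interferon-stimulated genes and chemokines in the 4 LNCaP arrays, 1 point per array; grey lines span the arrays. The red diamond (miR-29b) is far to the right of the others for IFIT2 (9.01 against 6.39 to 6.98) and IFIT1 (9.20 against 7.29 to 7.53), but next to siControl for DTX3L (9.38 and 9.16).

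Of 16 RNA sensors and adaptors, all measured and 9 above the floor, 11 were higher than nc and 5 lower, with a median of 0.10. RIGI and TLR3 were below the floor on the nc array and passed it through the miR-29b array. RIGI, the sensor of uncapped double-stranded RNA, read 7.61 with nc, 8.47 with miR-29b, 7.64 with siControl and 7.94 with siTET2, so it was above both controls by 0.86 and 0.83. EIF2AK2, the kinase PKR, read 9.33 with nc, 9.96 with miR-29b, 9.87 with siControl and 9.68 with siTET2. TLR3, the endosomal receptor, differed from nc by 0.52 and from siControl by 0.17, and IFIH1 (MDA5), below the floor, by 0.58 and 0.09. DHX58, another sensor below the floor, differed by 0.33 and 0.54 and was highest of the 4 arrays. RIGI thus had the largest difference of the list from each control, while EIF2AK2, TLR3 and IFIH1 were near siControl. MAVS, the adaptor of RIG-I on mitochondria, was lower than nc by 0.40 and lower than siControl by 0.10. The cytosolic DNA sensor CGAS was near the bottom of the scale, at 4.25 with nc and 4.24 with miR-29b, and its adaptor STING1 read 6.93 on both arrays.

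The interferons themselves were mostly low. Of 8 measured ligands 1 passed the floor, IFNL3, which differed from nc by −0.05. IFNB1 was at 4.30 with nc, 4.51 with miR-29b, 4.14 with siControl and 4.27 with siTET2. IFNL1, a type III interferon, read 6.95, 7.62, 6.66 and 7.18 in that order, below the floor but highest with miR-29b. Over the 8, 3 were higher and 5 lower than nc, with a median of −0.04 from nc and 0.37 from siControl.

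Receptors and signalling genes showed no common direction: of 19 measured, 9 were higher and 10 lower than nc, with a median of −0.01, and 0 were past 1.5-fold. IRF9, the DNA-binding subunit of the interferon-activated factor, read 7.65 with nc, 8.06 with miR-29b, 7.90 with siControl and 7.92 with siTET2. IRF7 differed from nc by −0.23 and from siControl by 0.25, and the receptor chain IFNAR1 by 0.14 and −0.25. Antigen presentation genes had a median of 0.08 over 13 measured members, 9 higher and 4 lower. The peptide trimming enzyme ERAP1 differed by 0.48 from nc and 0.15 from siControl, the transporter subunit TAP1 by 0.09 and 0.33, and B2M by 0.21 and −0.22.

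Among chemokines and cytokines, a few members were high and the rest were near nc. Of 26 measured members 14 were higher and 12 lower than nc, with a median of 0.01, and 6 were at least 1.5-fold higher. Against siControl 24 of the 26 were higher, with a median of 0.28, since siControl itself read lower than nc (median −0.22). Over all genes, 11117 of 18417 were higher than siControl. Genes below the floor, as most of this list were, had a median of 0.10 from siControl. The list had 8 members above the floor.

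CXCL8 (interleukin 8), an attractant of neutrophils, read 7.57 with nc, 8.95 with miR-29b, 6.95 with siControl and 7.02 with siTET2. CXCL10, an attractant of T cells, read 7.86 with nc, 9.08 with miR-29b, 7.42 with siControl and 8.24 with siTET2. CCL5 was at 7.86 with nc, 8.86 with miR-29b, 7.15 with siControl and 7.58 with siTET2. In each of these the miR-29b array was the highest, and nc was above siControl, so the difference from siControl was the larger one (1.66 against 1.22 for CXCL10). CCL20, which binds CCR6, read 9.21 with nc, 10.11 with miR-29b, 8.49 with siControl and 8.19 with siTET2. The death ligand TNFSF10 (TRAIL) differed from nc by 0.60 and from siControl by 0.38. CXCL11, a relative of CXCL10 named after its values were seen, read 5.60, 7.13, 5.58 and 6.17 in the order nc, miR-29b, siControl, siTET2, and did not pass the floor.

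Feedback and adaptor genes of NF-kappaB had a median of 0.02 over 20 measured members, with 11 higher and 9 lower than nc. TNFAIP3 (A20), a brake of the pathway that is also listed among miR-29 targets, differed from nc by 0.47 and from siControl by 0.66. RELB and NFKBIE were lower than nc, by 0.27 and 0.30. TRAF4, an adaptor also listed among miR-29 targets, was the member past 1.5-fold and was lower: 10.65 with nc, 10.06 with miR-29b, 10.42 with siControl and 10.61 with siTET2.

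The interferon motif was present in the promoters of 10 of the 47 genes at least 1.5-fold higher that had a promoter in the table (of 57), or 21.3%. It was present in 1 of 19 such genes at least 1.5-fold lower (of 23), and in 4.12% of the 14239 genes compared that had one. The other 2 motifs also had larger shares among the 47 higher genes. The kappaB letters were in 4 (8.51%) and the ATF4 element in 5 (10.6%), against 2.11% and 3.59% of the genes compared. Of the 19 lower genes 0 held either. Across all 35116 promoters of the table the shares were 3.57% for the interferon motif, 1.61% for the kappaB letters and 3.62% for the ATF4 element. The genes with the interferon motif were CXCL10, DTX3L, EIF2AK2, IFI6, IFIT1, IFITM1, NCOA7, OAS3, SNRPC and TNFSF10. In the interferon sensor and effector lists, 36 of 59 matched genes held it (61.0%), a share set by the choice of those lists. Of 18 chemokine and cytokine promoters 9 held the kappaB letters (50%), again a share set by the choice of the list. A match is a description of letters in this window and not a site.

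Outside the interferon and chemokine lists, the 15 largest positive differences held SLITRK6, CHAC1, RNPC3, PLAAT4 and MCMDC2; the other 10 were in those lists. SLITRK6, a neuronal membrane protein, read 7.49 with nc, 8.58 with miR-29b, 7.96 with siControl and 7.48 with siTET2. PLAAT4, a phospholipid-modifying tumour suppressor, read 6.89, 7.85, 7.15 and 7.32, and MCMDC2 7.70, 8.59, 8.06 and 8.16, in the order nc, miR-29b, siControl, siTET2. RNPC3, a protein of the minor spliceosome, read 7.72 with nc but 8.70, 8.69 and 8.68 on the other 3 arrays, and its second probe set differed from nc by −0.08. For RNPC3 the nc array was the one apart, not the miR-29b array. All 15, which were picked for their high miR-29b value, were highest of the 4 LNCaP arrays, and 3 of them were also at least 1.5-fold higher with siControl than with nc. Of the 15, 7 were below the floor on the nc array and passed it through the miR-29b array: IFIT2, IFIT1, CXCL8, SLITRK6, IFITM1, PLAAT4 and MCMDC2.

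CHAC1, which breaks down glutathione and is a target of ATF4, read 7.94 with nc, 8.93 with miR-29b, 8.06 with siControl and 7.88 with siTET2. It led a list of 33 ATF4 and unfolded protein genes in which 23 were higher and 10 lower than nc, with a median of 0.14, and 2 were at least 1.5-fold higher. The other was SLC7A11, the cystine importer, at 10.50 with nc, 11.24 with miR-29b, 11.09 with siControl and 10.11 with siTET2, near siControl. The amino acid synthesis genes ASNS and PHGDH were above both controls, by 0.51 and 0.43 and by 0.40 and 0.30. Chaperones of the endoplasmic reticulum, named after their values were seen, were near nc: HSPA5 differed from nc by 0.01, HSP90B1 by 0.02 and PDIA4 by −0.08. Of 31 promoters of the list 5 held the ATF4 element (16.1%), against 3.59% of the genes compared. That share is set by the choice of the list and not by the values on these arrays.

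TET2, the enzyme that oxidises methylated cytosine and the gene in the study's title, was lower with miR-29b. It read 9.24 with nc, 8.59 with miR-29b, 9.01 with siControl and 7.89 with siTET2. The difference was −0.64 from nc and −0.41 from siControl. Its second probe set differed by −0.34 from each. The miR-29b level lay between both controls and siTET2, which differed from siControl by −1.12. TET3, its relative, read 8.51 with nc, 7.88 with miR-29b, 8.40 with siControl and 8.15 with siTET2, so miR-29b was lower than siTET2 there. TET1 was below the floor and differed from nc by −0.14.

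TDG, which excises the oxidised bases that TET enzymes make, read 8.13 with nc, 7.78 with miR-29b, 8.57 with siControl and 8.33 with siTET2. The DNA methyltransferases, described as miR-29 targets in other cells, were close to both controls: DNMT1 differed by 0.16 from nc and 0.05 from siControl, DNMT3A by −0.13 and 0.09, and DNMT3B by −0.04 and −0.03. Across 26 measured genes of DNA methylation and demethylation, 11 were higher and 15 lower than nc with a median of −0.02, and the 2 past 1.5-fold were TET2 and TET3.

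Known targets of miR-29 were mostly on the low side of nc. Of 57 measured targets outside the matrix, 37 above the floor, 46 were lower and 11 higher, with a median of −0.15 from nc. Over all genes 45.3% were above nc, and 64.9% of those below the floor were lower than nc. Among the 37 above the floor 29 were lower, where 4236 of 9444 genes were. MYBL2, TET2, TET3, BAK1 and TRAF4, all above the floor, were the 5 at least 1.5-fold lower, against 0.244% of genes above it. Against siControl 32 of the 57 were lower and 25 higher, with a median of −0.03. Below both controls were 30 of the 57, where 22.2% of all genes were. The 11 targets higher than nc included TNFAIP3 (0.47 from nc, 0.66 from siControl) and BCL2L11 (0.23 and 0.06).

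MYBL2, a transcription factor of dividing cells, read 10.53 with nc, 9.89 with miR-29b, 10.61 with siControl and 9.95 with siTET2. It was lower on both the miR-29b and the siTET2 array. BAK1, a pore-forming death effector, read 9.07, 8.46, 8.68 and 9.05 in the order nc, miR-29b, siControl, siTET2, and KDM5B, a histone demethylase, 10.32, 9.76, 10.04 and 10.60. The phosphatase PPM1D differed from nc by −0.42 and from siControl by −0.35. MCL1, a survival factor, was lower by 0.25 and 0.33.

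The matrix targets were mostly below the floor, which 6 of 38 passed. Of the 38, 33 were lower than nc with a median of −0.16, but 27 were higher than siControl with a median of 0.11. Most collagens followed this. COL1A1 read 8.09 with nc, 7.93 with miR-29b, 7.82 with siControl and 7.91 with siTET2. COL3A1 read 7.12, 6.96, 6.83 and 6.83 in the same order, and COL4A1 5.94, 5.82, 5.67 and 5.77. In all 3 the nc array was the highest and miR-29b lay between the controls. Low-signal probe sets as a whole did the same: the 8973 genes below the floor had a median of −0.07 from nc, with 64.9% below 0, and of 0.10 from siControl. Its part in the result for the matrix list was not tested. Above the floor, LAMC1, a laminin chain, read 11.23 with nc, 10.88 with miR-29b, 11.40 with siControl and 11.46 with siTET2. MMP15, a membrane metalloproteinase, read 8.93, 8.14, 8.61 and 8.72, and PXDN, a collagen-crosslinking peroxidase, 8.48, 8.14, 8.40 and 8.87. These 3 were lowest with miR-29b of all 4 arrays, whereas COL1A1, COL3A1 and COL4A1 were not. Of the other collagens, COL4A5, COL5A2, COL9A1 and COL21A1 were also lowest with miR-29b, and COL4A4 was highest, all below the floor.

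The 15 largest negative differences ran from −0.87 to −0.67 and, picked for their low miR-29b value, were all lowest of the 4 arrays. POMK, a kinase that modifies dystroglycan, read 11.25 with nc, 10.38 with miR-29b, 11.18 with siControl and 10.95 with siTET2. PRMT6, an arginine methyltransferase of histones, read 8.95, 8.13, 9.10 and 8.91. HPGD, which inactivates prostaglandins, read 9.38, 8.71, 9.53 and 10.07. In these 3 both controls were well above miR-29b. HOMER2, a scaffold protein, differed from nc and siControl by −0.79 and −0.59, MPZL3 by −0.76 and −0.61, TMEM164 by −0.74 and −0.71, and the dynein light chain DYNLT1 by −0.69 and −0.68. PCDHB2, a protocadherin, and BTG1, which restrains division, were nearer to siControl: they differed from nc by −0.74 and −0.69 and from siControl by −0.17 and −0.23. TENM1, DSC2, DSEL, ING4 and CASTOR1 completed the 15, with differences between −0.78 and −0.67 from nc. MMP15 was the 1 of these 15 in a miR-29 target list. The seed match of 3′ untranslated regions was not analysed here.

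**Figure D2:**
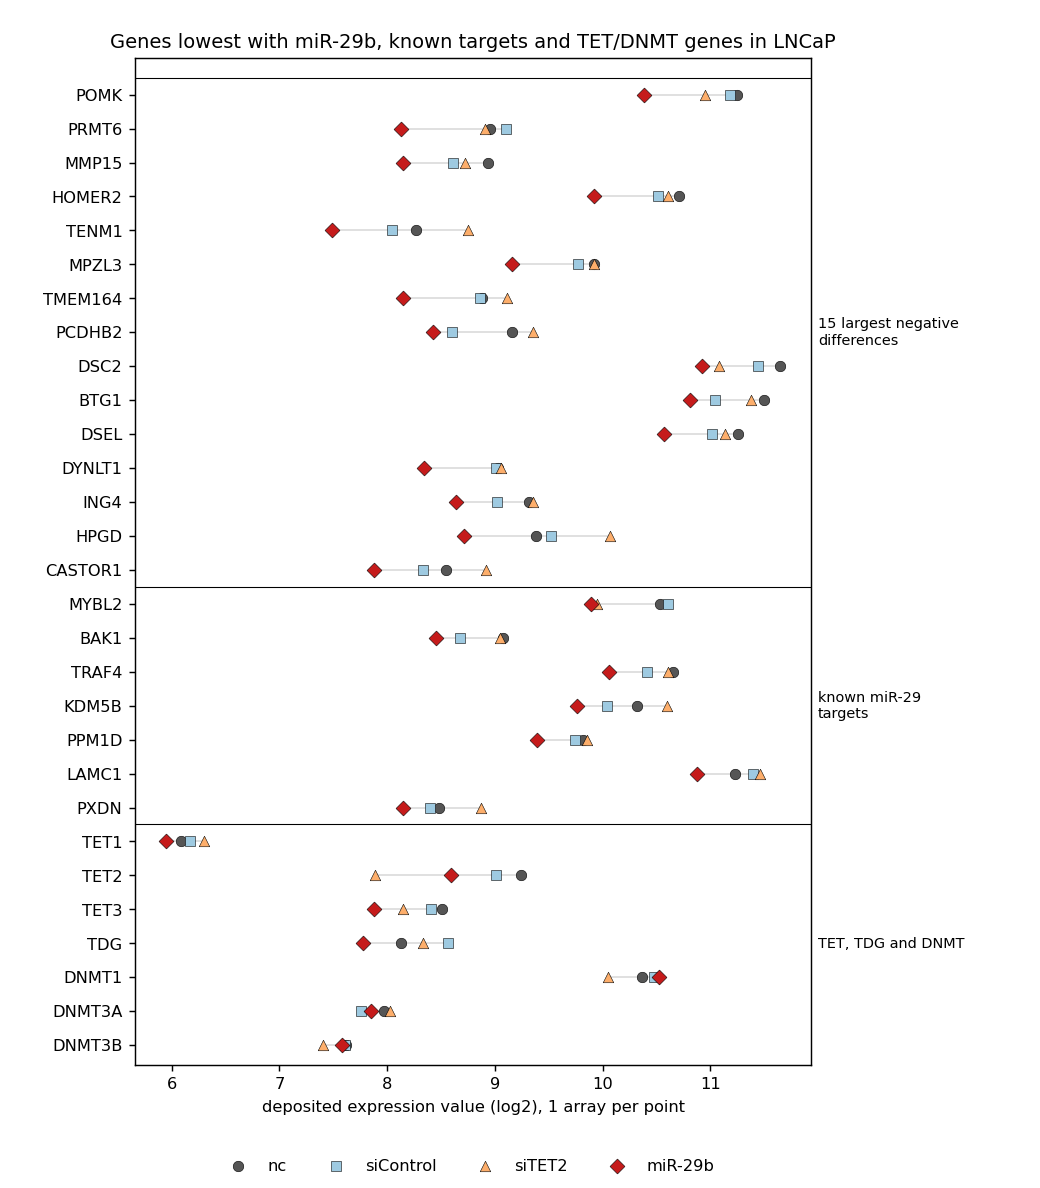
Deposited log2 levels in the 4 LNCaP arrays of the 15 genes lowest relative to nc, of known miR-29 targets and of TET, TDG and DNMT genes, 1 point per array. The red diamond (miR-29b) is the leftmost point for all of the upper 15, while for TET2 siTET2 (7.89) is further left than miR-29b (8.59) and the DNMT genes cluster.

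Both references together gave a shorter list. Of 9609 genes, 16 were at least 1.5-fold above both controls (0.167%): CCL20, CCL5, CHAC1, CLU, CXCL10, CXCL8, IFIT1, IFIT2, IFITM1, OAS1, OASL, PLAAT4, PMAIP1, RIGI, SLC16A9 and SLITRK6. Below both by that fold were 8 (0.0833%): DYNLT1, HOMER2, HPGD, MPZL3, MYBL2, POMK, PRMT6 and TMEM164. Of the 16, IFIT1, IFIT2, IFITM1, CXCL8, OAS1 and PLAAT4 were below the named-gene median on both control arrays. They passed the floor through the miR-29b array, where they were high. CLU, a secreted chaperone, read 7.83 with nc, 8.48 with miR-29b, 7.89 with siControl and 7.54 with siTET2, and SLC16A9, a carrier protein, 7.83, 8.44, 7.74 and 7.56; both are outside the rule for named genes and were named after their values were seen. With siTET2 as another array to pass, 11 of 9671 genes were above all 3 others (0.114%) and 7 below (0.0724%). On the same terms the nc array had 0 above and 6 below, siControl 9 and 2, and siTET2 13 and 24, so the count for miR-29b was within the range of the other arrays.

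Most androgen-induced genes were lower with miR-29b than on either control array. Of 27 measured androgen-induced genes 20 were lower and 7 higher than nc, with a median of −0.21 from nc and −0.16 from siControl, and 18 were below both controls (22.2% of all genes were). TRPM8, a cold-sensing channel, read 7.90 with nc, 7.40 with miR-29b, 7.88 with siControl and 8.01 with siTET2. SLC45A3 (prostein) read 11.23, 10.75, 10.91 and 11.22, and AZGP1, a secreted glycoprotein, 10.01, 9.67, 10.18 and 10.43. HPGD, given above, was the member past 1.5-fold. KLK3 (prostate-specific antigen) differed by −0.05 from nc and −0.18 from siControl. Partner factors of the androgen receptor had a median of −0.01 over 12 measured members, 6 higher and 6 lower, with HOXB13 at −0.08 and GATA2 at −0.14.

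Cell cycle genes lay on a different side of 0 for each reference. Of 42 measured G2/M genes 39 were higher than nc, with a median of 0.20, but 30 were lower than siControl, with a median of −0.12, as siControl was 0.34 above nc. AURKA, a mitotic kinase, read 9.84 with nc, 10.35 with miR-29b, 10.35 with siControl and 9.67 with siTET2. HMMR, a spindle protein and the member past 1.5-fold, read 9.76, 10.35, 10.34 and 9.62. For both genes nc was lower than siControl, and miR-29b was within 0.01 of siControl. S phase genes had a median of 0.18 from nc and −0.02 from siControl over 37 members. Genes of cholesterol and lipid synthesis had a median of 0.03 from nc and −0.13 from siControl over 25.

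Death and p53 genes split by member. PMAIP1 (NOXA), a BH3-only protein that binds MCL1, read 8.62 with nc, 9.49 with miR-29b, 8.89 with siControl and 9.14 with siTET2. It was high while BAK1 and MCL1, given above, were low, and the BCL2 family had a median of −0.07 from nc and 0.06 from siControl over 15 members. Of 29 p53 targets 20 were higher and 9 lower than nc, with a median of 0.13 from nc and 0.15 from siControl. ZMAT3, an RNA-binding p53 target, read 8.19, 8.96, 8.62 and 9.34 in the order nc, miR-29b, siControl, siTET2, so siTET2 was higher than miR-29b. DDB2, a repair factor, differed from nc by 0.46 and from siControl by 0.62, and the receptor FAS by 0.37 and 0.26.

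The small RNA machinery was close to nc: 13 of 23 members were higher and 10 lower than nc, with a median of 0.03, and 0 were past 1.5-fold. DCP2, which removes caps from messengers, read 9.48 with nc, 9.02 with miR-29b, 9.57 with siControl and 9.07 with siTET2. AGO2, the slicing Argonaute, differed by −0.24 from nc and −0.17 from siControl. Epithelial and mesenchymal markers had a median of −0.19 from nc and −0.01 from siControl over 21 members, with CDH1 (E-cadherin) at −0.30 and −0.26 and FN1 (fibronectin) at −0.26 and −0.35.

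**Figure D3:**
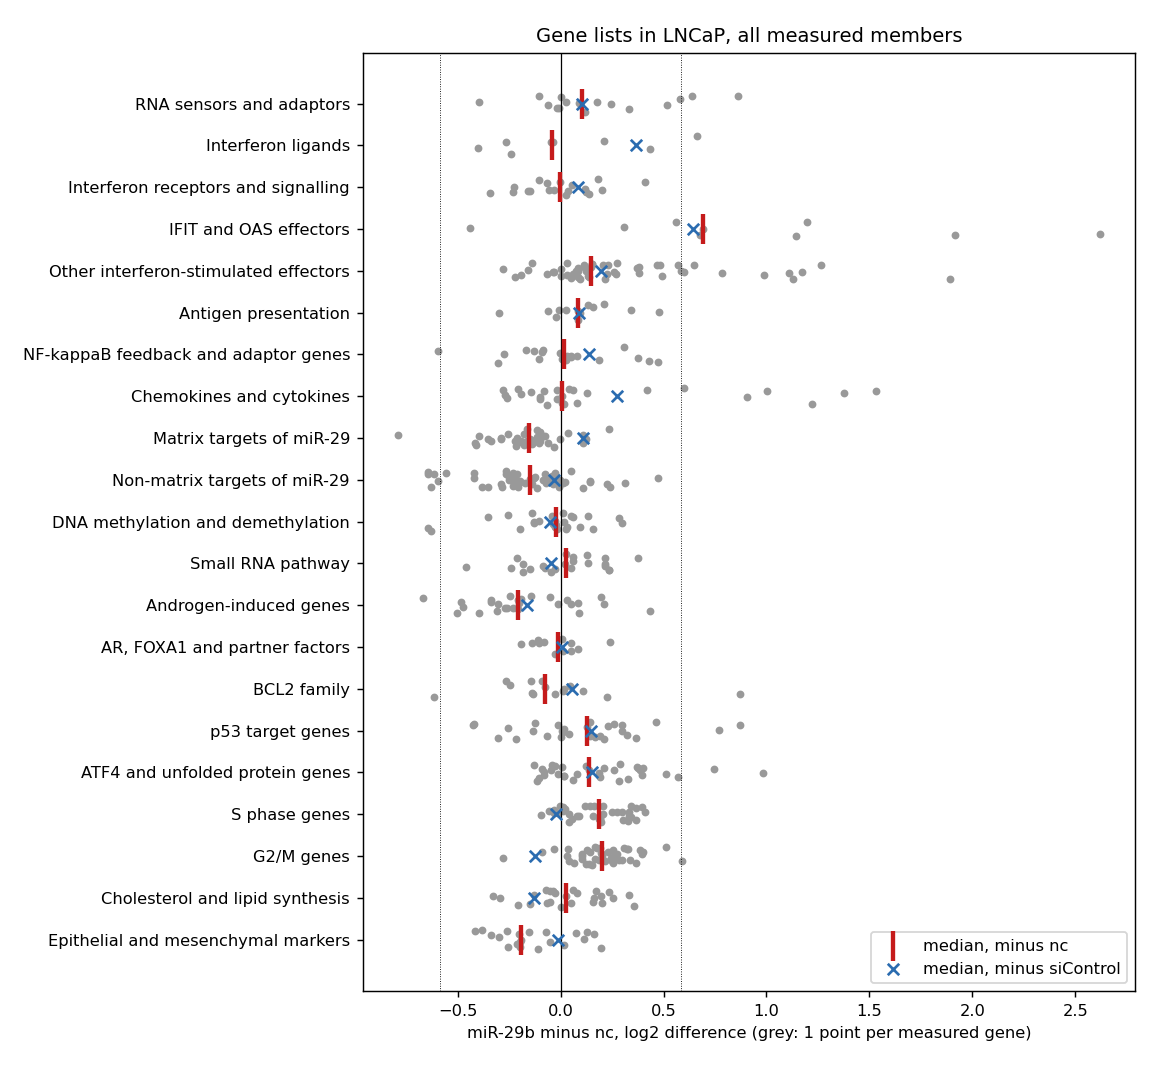
Log2 difference of miR-29b minus nc for every measured member of 21 gene lists (grey points), with the list median against nc (red bar) and against siControl (blue cross); dotted lines mark 1.5-fold. IFIT and OAS genes have medians of 0.69 and 0.64, while the blue cross falls on the other side of 0 from the red bar for G2/M genes (0.20 and −0.12) and for matrix targets (−0.16 and 0.11).

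TET2 was lower both with miR-29b against nc and with siTET2 against siControl. The difference of siTET2 from siControl uses neither the nc nor the miR-29b array. Across 9186 genes above the floor in both comparisons, Pearson's r was −0.30 and Spearman's rho −0.29; genes are not independent replicates, the 4 arrays share a cell line, and no p is given. G2/M genes had a median of 0.20 in miR-29b minus nc and −0.67 in siTET2 minus siControl. Androgen-induced genes had medians of −0.21 and 0.17 in that order, and IFIT and OAS genes 0.69 and 0.28. So the G2/M and androgen lists lay on opposite sides of 0 for the 2 constructs, each against its own control, and the IFIT and OAS list on 1 side. For G2/M genes this turned with the reference: against the siControl array both constructs were below 0, with a median of −0.12 for miR-29b.

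**Figure D4:**
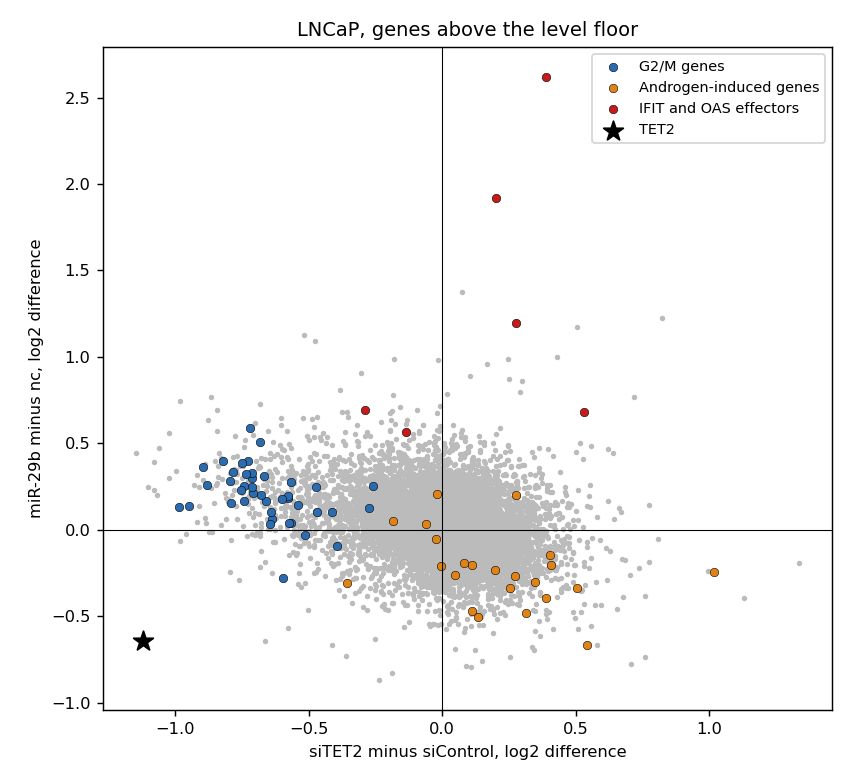
Log2 difference of miR-29b minus nc (vertical) against siTET2 minus siControl (horizontal) for the 9444 genes above the floor of the first, 1 grey point per gene, with 3 lists in colour and TET2 as a star. TET2 is at −0.64 and −1.12, G2/M genes sit to the left and mostly above 0, and androgen-induced genes mostly below 0.

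In DU145, the same pair of constructs gave other values for the genes leading in LNCaP. IFIT2 read 5.51 with nc and 5.28 with miR-29b in DU145, a difference of −0.23, and IFIT1 read 7.28 and 7.04. The 15 highest genes of LNCaP had a median difference of −0.24 in DU145, with 12 below 0, and the 15 lowest had −0.12, with 11 below 0. Below the DU145 floor on both arrays were 8 of the 15 highest and 4 of the 15 lowest. In DU145 as a whole, 6115 of 9395 genes above the floor were below 0 (median −0.04), a share close to that of the 15 lowest. The IFIT and OAS list had a median of −0.04 in DU145, chemokines −0.03 and non-matrix targets −0.06. TET2 differed by −0.18 there, TET3 by −0.26 and MYBL2 by −0.18, the same side as in LNCaP and smaller. Across 8280 genes above the floor in both lines, r was 0.09 and rho 0.13, over pairs that share no array; without a floor, over 18417 genes, they were −0.14 and −0.13. With 1 array per group the difference between the lines was not tested.

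**Figure D5:**
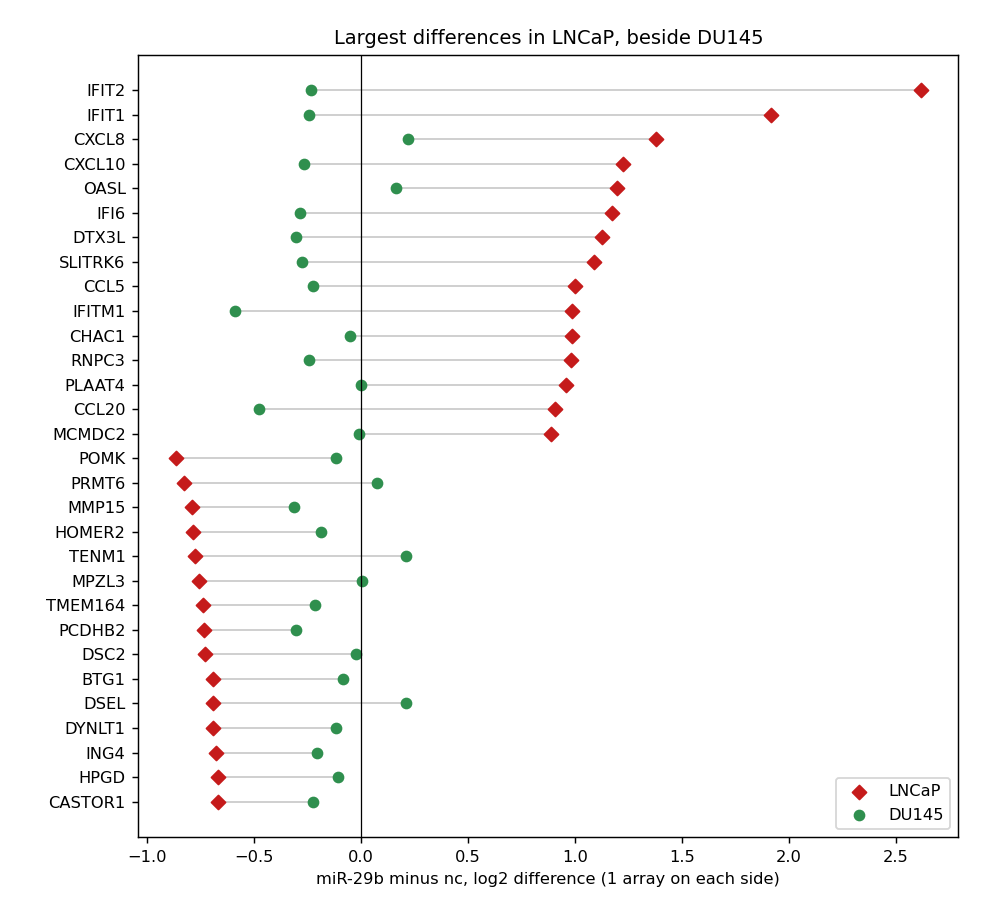
Log2 difference of miR-29b minus nc in LNCaP (red) and in DU145 (green) for the 15 largest positive and 15 largest negative differences of LNCaP, 1 array on each side of each difference. IFIT2 is at 2.62 in LNCaP and −0.23 in DU145, and CXCL8 at 1.38 and 0.22.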

How the data were processed

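The deposited log2 values came from RMA in Affymetrix Expression Console, per the submitters' processing notes, as 1 table of 33297 probe sets and 8 arrays; versions, and which arrays were normalized together, are not given in the sources used here. RMA corrects background, makes array distributions alike and summarises probes as log2 values. The number of arrays limits the precision. Of the probe sets, 19460 had 1 symbol in the platform annotation, 1754 several and 12083 none; 19429 symbols matched RefSeq. Where a gene had more than 1 probe set (769 genes), the brightest on average over the 8 arrays was used. Array medians over probe sets were 7.10 to 7.17 in LNCaP.

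Differences of 2 arrays were computed in Python 3.11.15 with pandas 2.3.3, with no test, since each construct had 1 array per line. The scripts were tested on simulated data. Named genes are the protein-coding genes above the floor with the 15 largest differences each way, TET, TDG and DNMT genes, from each list the 6 members at most that differed most, and all IFIT, OAS, sensor, ligand and matrix members. The comparison, the members and the 25 gene lists were chosen with earlier results of these data known. Control array, floor, probe set and scaling were varied. Seed matches in 3′ untranslated regions were not run, as no transcripts were given, and some well-known genes were not analysed here.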

Additional observations from a re-analysis of the deposited data

Results flagged for a closer look

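Of 45 named genes past 1.5-fold in LNCaP above the floor, 14 lay on the other side of 0 in DU145 by at least the SD of siControl minus nc in that line, 0.17. Of the 14, 12 were higher in LNCaP and lower in DU145, where 6115 of 9395 genes above the floor were below 0. The share of all genes that met the same rule was not computed, so the 14 cannot be read as particular to these genes. The difference between the lines was not tested, as each group had 1 array. Of the 14, 9 were below the level floor on both DU145 arrays, so their DU145 differences are between low-signal values: IFITM1, TNFSF10, SLITRK6, CXCL10, IFIT1, IFIT2, CCL5, TENM1 and DSEL. Higher with miR-29b in LNCaP and lower in DU145 were IFITM1 (0.99 in LNCaP, −0.59 in DU145), CCL20 (0.91, −0.48), TNFSF10 (0.60, −0.35), DTX3L (1.13, −0.30), IFI6 (1.17, −0.29), SLITRK6 (1.09, −0.27), CXCL10 (1.22, −0.27), RNPC3 (0.98, −0.24), IFIT1 (1.92, −0.24), IFIT2 (2.62, −0.23), CCL5 (7.86 with nc and 8.86 with miR-29b in LNCaP, −0.22 in DU145) and OAS3 (0.69, −0.18). Lower in LNCaP and higher in DU145 were TENM1 (−0.78, 0.21) and DSEL (−0.69, 0.21). All values are log2 differences from nc.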

How the results depend on the processing

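Both the control array and the level floor moved counts and list medians. With siControl in place of nc, 1 gene was at least 2-fold lower, 30 were at least 1.5-fold higher and 74 lower. Above the floor, the chemokine median was 1.003 against siControl and 0.75 against nc. Interferon ligands had 1 gene above the floor, IFNL3, at 0.36 against siControl and −0.05 against nc. Against siControl, the medians of the BCL2 family (0.0743), S phase (−0.0203) and G2/M genes (−0.12) lay on the other side of 0. With the mean of both controls, 24 genes were at least 1.5-fold higher. Without a floor, 17 genes passed 2-fold upwards and 1 downwards, 124 at least 1.5-fold higher and 71 lower, 26 above and 23 below both controls, and the medians over all measured members were 0.69 for IFIT and OAS genes and 0.0053 for chemokines. With the floor at the 75th percentile, 2 genes passed 2-fold upwards, 15 at least 1.5-fold higher and 12 lower, 2 above and 5 below both controls, and the chemokine median was 0.38. The cause was not tested. All 47 named genes past 1.5-fold kept their side of 0 under 6 settings of control, probe set and scaling. As these genes were picked for a large difference from nc, and the scaling shifts were small, this was largely set by the choice. The mean of controls also contains nc. Of the 47, 25 were still past 1.5-fold against siControl and 32 against the mean of controls. Scaling shifted the median of all genes by −0.02 to 0.03. A floor on the mean of the 4 LNCaP arrays was chosen after seeing the data and kept the side of 0 of all 21 list medians. No paired analysis was possible because each construct has 1 array per line and the labels give no replicate numbers. Seed-match alternatives were not run.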

Other observations

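Some interferon and chemokine genes that were high with miR-29b in LNCaP were higher with both siRNAs than with nc in DU145, and others were not. IFIT1 read 7.28 with nc, 7.04 with miR-29b, 8.36 with siControl and 8.10 with siTET2 in DU145, and IFIT2 5.51, 5.28, 6.82 and 6.71. OASL read 6.51, 6.67, 7.64 and 7.29, IFI6 8.94, 8.65, 9.73 and 10.01, and CXCL8 10.17, 10.39, 11.25 and 11.75 in the same order. In LNCaP the siControl array was near nc for IFIT1 (7.33 and 7.29). In DU145, HERC6 read 8.48 with nc, 8.45 with siControl and 8.58 with siTET2, and TNFSF10 was lower with both siRNAs than with nc. IFIT2 and TNFSF10 were below the named-gene median on every DU145 array, so their differences there are between low-signal values. IFIT1 was below that median on the DU145 nc and miR-29b arrays, and OASL on every DU145 array but siControl. These values have no replicate, and the difference between the lines was not tested.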
